A study of Mus musculus with 8 samples.

Results

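The 10 genes described here encode ETS-family transcription factors: Etv1, Etv4 and Etv5 of the PEA3 subfamily, Ets1 and Ets2 of the ETS subfamily, Elk1, Elk3 and Elk4 of the ternary complex factor (TCF) subfamily, Etv6 of the TEL subfamily, and Gabpa. They were chosen by name, and all 10 were found among the 21291 gene rows of the expression table. RNA came from whole kidney pairs of E14.5 mouse embryos, and polyadenylated transcripts were sequenced in 4 control and 4 mutant libraries. Controls carried Six2-GFPcre tg/+ and Etv5fl/fl and were Etv4+/-. Mutants carried the same transgene and the same floxed Etv5 genotype but were Etv4-/-. Both groups therefore had Cre, driven from Six2 regulatory sequence in nephron progenitors and inherited by their descendants, together with 2 floxed Etv5 alleles. By the labels the groups differ at Etv4 alone, and nothing in the labels limits the Etv4 allele to one cell type. The study's question is what loss of Etv4 and Etv5 from nephron progenitors and their derivatives does to kidney gene expression.

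ETS factors share a DNA-binding domain, the ETS domain, that recognises sites built on a GGAA core, and they differ in partners and in the signals that act on them. In the developing kidney, Etv4 and Etv5 are made in ureteric bud tips, where GDNF acts through the receptor RET, and in cap mesenchyme, where FGF ligands act, and both are transcribed in response to ERK signalling. TCF members bind DNA with serum response factor and activate immediate early genes when ERK phosphorylates them, Etv6 is a repressor, and Gabpa pairs with Gabpb subunits at promoters of housekeeping and mitochondrial genes.

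The libraries held 15515139 to 39548327 estimated counts. Control 4 was the shallowest, and 18.4% of its counts came from Lars2 against at most 0.476% elsewhere, which leaves the fewest reads for other genes there. The summed normalized count of the Y-linked genes Ddx3y, Uty, Eif2s3y and Kdm5d was between 3586 and 3716 in the control libraries, against 0 to 19.6 in the mutant ones. Genotype and the sex of the embryos therefore cannot be told apart in any comparison below. A normalized count is an estimated count divided by a size factor for library depth. Markers of nephron progenitors, ureteric epithelium, stroma and endothelium were present in every library. Of the 5 adrenal cortex markers, 3 were at 0 in some library, and the list summed to 99.5 to 246 normalized counts. The library names of controls 1 and 2 hold the same number as those of mutants 1 and 2, and control 4 shares one with mutant 4; what the number stands for is not stated. The labels call controls littermates without saying which embryos shared a litter, so p-values measure the spread between these 8 kidney pairs.

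The PEA3 factors are close relatives, and a stretch of their ETS domain shows how close. The 90 bases below code for the part of the domain that includes the DNA recognition helix. They are printed 5′ to 3′ on the coding strand from GENCODE M21 transcripts on GRCm38, the assembly also called mm10. Capitals mark every position at which the 3 genes are not all identical. Etv1 is shown from exon 13 of 14 (chr12:38861299-38861388, plus strand), Etv4 from exon 12 of 13 (chr11:101770969-101771058, minus strand) and Etv5 from exon 12 of 13 (chr16:22386757-22386846, minus strand).
Etv1: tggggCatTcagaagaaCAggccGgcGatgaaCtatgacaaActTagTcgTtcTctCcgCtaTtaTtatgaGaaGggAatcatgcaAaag
Etv4: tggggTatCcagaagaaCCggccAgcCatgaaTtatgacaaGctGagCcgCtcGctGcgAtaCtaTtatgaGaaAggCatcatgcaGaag
Etv5: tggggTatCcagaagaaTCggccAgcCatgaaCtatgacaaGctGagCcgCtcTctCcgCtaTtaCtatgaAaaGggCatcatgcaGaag
Etv4 and Etv5 were identical at 81 of these 90 bases, Etv1 and Etv5 at 76, and Etv1 and Etv4 at 73. The window was the stretch within single exons with the most identity among the 3 coding sequences. Even so, no run of 31 bases was shared between any transcripts of these 3 genes. Among all 10 factors the single sharing of such runs was between Etv1 and Ets1, 4 of the 13366 in Etv1. Reads from one member could thus seldom be counted for another.

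Etv4, the factor removed by the mutant genotype, fell in the mutants (ENSMUSG00000017724, chromosome 11, 101769742 to 101785371, minus strand). It had 2816, 2803, 2816 and 2311 normalized counts in controls 1 to 4, against 294, 281, 219 and 164 in mutants 1 to 4. No mutant library came near a control library, and the mutant mean was 8.91% of the control mean. On the scale log2(normalized count + 1), the fold change was −3.51 (SE 0.18, limma adjusted p = 2.6e-05). The table gives 1 value per gene, so the remaining Etv4 counts cannot be placed on particular exons, and what they code for is not known from these data. Etv4 was called by limma in all 25 other fits tried, with log2 fold changes from −3.63 to −3.05.

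**Figure D1:**
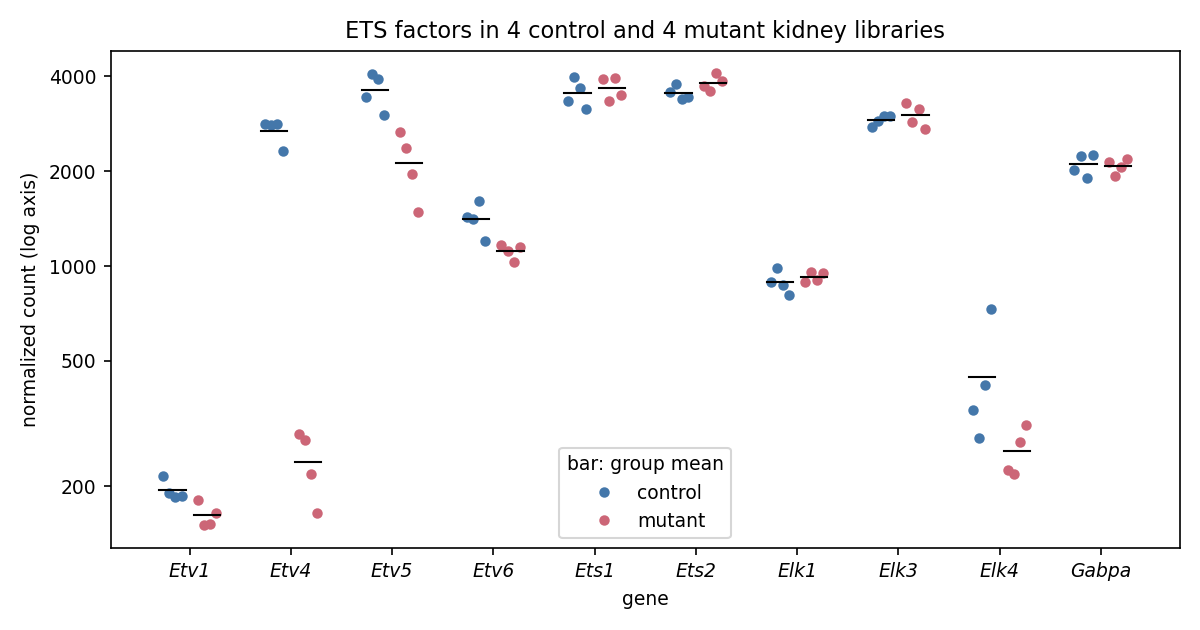
Normalized counts (log axis) of the 10 ETS factors in 4 control and 4 mutant libraries; each point is a library and each bar a group mean. Etv4 separates the groups by the widest margin, Etv1, Etv5 and Etv6 are lower in every mutant library, and the other 6 genes overlap.

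Etv4 was the one member of 10 that passed the threshold of an adjusted p below 0.05 in the lower direction, where 0.220% of the 14974 genes tested passed. None of the 10 passed in the higher direction, where 0.0801% of genes tested did by limma; 4 had an unadjusted p below 0.05 (Etv4, Etv5, Etv6 and Elk4), all with negative fold changes, against 12.0% of genes tested. Over all genes 33 were lower and 12 higher, a split that became 18 lower and 62 higher without correction for depth. With genes on X and Y left out it was 23 lower and 5 higher. For 4 of the 10 (Etv1, Etv4, Etv5 and Etv6) all mutant values were lower than all control values, against 4.43% of genes tested; for none were they all higher, against 4.17%. Groups that did not overlap in either direction made up 8.60% of genes tested. Log2 fold changes were negative for 6 of the 10 members and for 48.3% of genes tested. The median log2 fold change of the 10 was −0.14, against 0.0087 for all genes tested.

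Etv5, the second gene of the study's question, was lower in all 4 mutants without passing the test across all genes (ENSMUSG00000013089, chromosome 16, 22381309 to 22439719, minus strand). It had 3438, 4085, 3929 and 3006 normalized counts in controls 1 to 4, against 2657, 2377, 1957 and 1487 in mutants 1 to 4. The groups did not overlap, although mutant 1 came close to control 4. The mutant mean was 58.7% of the control mean, and the log2 fold change was −0.79 (SE 0.17, 95% interval −1.18 to −0.40, limma adjusted p = 0.106). In the authors' deposited table of 644 genes, Etv5 is listed with a log2 fold change of −0.85 and an adjusted p of 4.8e-05, and Etv4 with −3.55 and 1.5e-94. The other 8 members are not listed in the authors' deposited table, in which every listed gene has an adjusted p below 0.05. The 4 Y-linked genes, all called lower by limma, are not listed either. Absence from that table therefore does not show that a gene failed the authors' test.

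The call for Etv5 varied between fits, and its direction did not. Its log2 fold change was negative in all 25 other fits, from −0.91 to −0.32, and its limma adjusted p ran from 0.00918 to 0.648. It passed in 5 of these fits. Among them were those with library weights (limma adjusted p = 0.00918), with the number in the library names as a block (0.0126) and without control 4 and mutant 4 (0.0234). Another was the fit with the proximal tubule marker score as a covariate (limma adjusted p = 0.0296), where the log2 fold change was −0.61. Within the first shared library number (controls 1 and 2, mutants 1 and 2) Etv5 differed by −0.58, and within the other (control 4, mutant 4) by −1.01. Leaving out any 1 library gave limma adjusted p values from 0.0531 to 0.315. By label both groups have Cre and floxed Etv5, yet the series is titled as a loss of both genes. Whether the control labels give the genotype in full is not known, and what it adds to the Etv5 difference was not tested.

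Within the mutants, Etv4 and Etv5 moved together from library to library. Etv4 counts were 11.0%, 11.8%, 11.2% and 11.1% of Etv5 counts in mutants 1 to 4, against 81.9%, 68.6%, 71.7% and 76.9% in controls 1 to 4. The mutant ratios span less than 1 percentage point, while the level of each gene differed widely among the same 4 libraries. The 4 mutants ranked in one order for Etv4, Etv5, Ret, the GDNF receptor of ureteric tips, Gfra1, its co-receptor, Six2, the progenitor transcription factor, and Cxcr4, a chemokine receptor. They were chosen because of this order, and 4 libraries are too few to test an order. Wnt11, a ligand of ureteric tips, did not share it. Among the other nephron progenitor markers Eya1 shared the order, while Cited1, Osr1, Meox1, Crym and Capn6 did not. Capn6 ran the opposite way, with 1599, 1675, 1797 and 1988 normalized counts in mutants 1 to 4. Among the other ureteric markers Gata3 and Calb1 shared the order, while Wnt9b, Hoxb7, Lhx1 and Emx2 did not. Ret had 3435, 3305, 2275 and 1573 normalized counts in mutants 1 to 4, and Six2 had 3297, 2799, 1181 and 608. The proximal tubule marker score, a mean of centred log2 values, was lower in mutants 1 and 2 (−1.29 and −0.76) than in mutants 3 and 4 (1.78 and 3.40). Its part in this order was not tested.

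**Figure D2:**
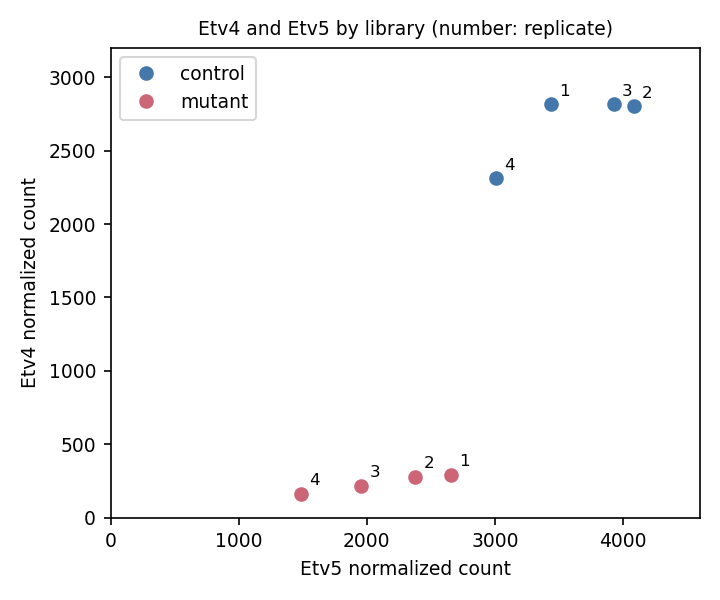
Etv4 against Etv5, both in normalized counts; each point is a library, numbered by replicate. Controls lie at 2311 to 2816 Etv4 counts, and the 4 mutants lie near a line with Etv4 at 11.0% to 11.8% of Etv5.

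As a sum, nephron progenitor markers were lower in all 4 mutant libraries than in any control, as Etv4 and Etv5 were. The 7 nephron progenitor markers had summed normalized counts of 17826 to 32290 in the control libraries, and of 4579 to 9713 in the mutant libraries, with none at 0 in any library. All 7 were negative (48.3% of genes tested were) and 3 were called lower (0.220% of genes tested were): Capn6, on the X chromosome (−0.95, limma adjusted p = 0.0056), the transcription factor Osr1 (−1.69, limma adjusted p = 0.0152) and Crym (−2.87, limma adjusted p = 0.0185). Of these 3, 0 were called without control 3, 1 without mutant 3, 2 without control 1, mutant 1 or mutant 4, and 3 without any other single library. The authors' deposited table lists 4 of the 7 progenitor markers, all with negative log2 fold changes. For the 8 ureteric epithelium markers the sums were 19153 to 27101 among controls, against 15472 to 22231 among mutants, with 5 of 8 negative and none past the limma threshold. The authors' deposited table lists 2 of the 8, 1 with a negative and 1 with a positive log2 fold change. In these whole-kidney libraries, fewer cells that make a factor and less RNA of it per cell cannot be told apart. The part of these cell types in the Etv5 values was not tested.

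Every other gene was also compared with Etv4 and Etv5 by its profile over the 8 libraries. Nearness was the root mean square difference between centred log2 profiles, over 14102 genes, leaving out the Y chromosome and unnamed gene models. Nearest to Etv4 were Tafa4 (0.48 log2 units), Crym (0.54), Fgf20 (0.60) and Defb36 (0.67); Fgf20 encodes an FGF ligand made by nephron progenitors. Nearest to Etv5 were Epop (0.12), Chst9 (0.13), Ret (0.13) and Ckb (0.14), of which Ckb, the brain-type creatine kinase, fell by 0.74 on the log2 scale (SE 0.12, limma adjusted p = 0.0432). With 1 library left out Ckb passed only without control 4 (limma adjusted p = 0.0337), and the other 7 fits gave adjusted p values up to 0.168. Nearness includes the gap between the groups, so falls in the genes nearest to Etv4 or Etv5 follow from how they were picked. The p values of Ckb are therefore no separate evidence.

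Etv1, the remaining PEA3 gene (ENSMUSG00000004151, chromosome 12, 38779380 to 38870484, plus strand), was the member with the lowest level per length. It had 216, 190, 185 and 186 normalized counts in controls and 180, 150, 152 and 164 in mutants. Every mutant lay below every control, by a small margin. The log2 fold change of −0.26 (SE 0.15, 95% interval −0.59 to 0.063) did not pass (limma adjusted p = 0.514), and it was 0.20 with uncorrected depth, a setting that moved the all-gene median to 0.48.

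Per kilobase of merged exons, the scale used here to set genes side by side, the PEA3 subfamily had the highest summed level among the subfamilies of the 10 factors in controls. Etv5 had 881 ± 120 normalized counts per kb, Etv4 865 ± 80.7 and Etv1 14.6 ± 1.10 (SD, n = 4 controls). Etv5 and Etv4 overlapped in controls, with Etv5 above Etv4 in 2 of 4 libraries. In mutants the values were 517 ± 124 for Etv5, 77.1 ± 19.3 for Etv4 and 12.1 ± 1.05 for Etv1 (SD, n = 4). Summed over the 3 genes, the level per kb was 1761, 1913, 1879 and 1491 in controls 1 to 4, against 756, 681, 559 and 428 in mutants 1 to 4. Etv5 made up 49.9% ± 1.98 of that sum in controls and 85.2% ± 0.407 in mutants (SD, n = 4 each), and Etv4 49.2% ± 1.88 and 12.7% ± 0.400. Over all 27 ETS genes listed, the PEA3 share of the summed level per kb was 24.8% ± 1.37 in controls and 9.78% ± 2.04 in mutants (SD, n = 4 each). These shares follow from the lower Etv4 and Etv5 counts and were not tested separately.

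**Figure D3:**
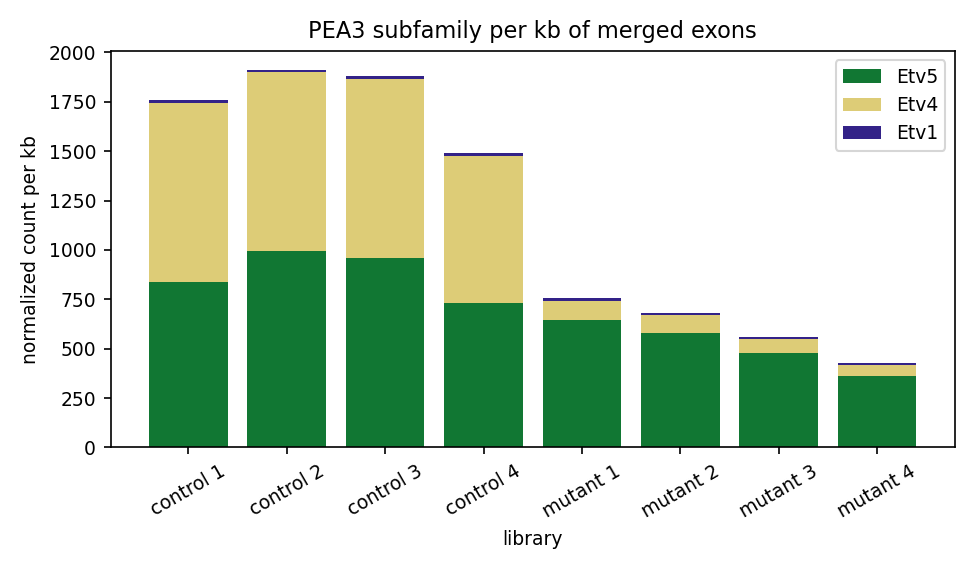
Normalized count per kb of merged exons for Etv5, Etv4 and Etv1, stacked, in each of the 8 libraries. Controls reach 1491 to 1913 with near-equal Etv4 and Etv5, and mutants reach 428 to 756, most of it Etv5.

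The order of levels per kb in controls was Etv5, Etv4, Elk3, Ets2, Ets1, Gabpa, Etv6, Elk1, Elk4 and Etv1. Neighbours that overlapped among the control libraries were Etv5 with Etv4, Elk3 (640 ± 24.6) with Ets2 (614 ± 29.9), and Ets1 (418 ± 43.3) with Gabpa (369 ± 29.6), all as normalized counts per kb (SD, n = 4). In mutants Ets2 (661 ± 36.7) and Elk3 (661 ± 57.5) led, and Etv5 and Etv4 took the third and the eighth place. The order depends on the length used: by the longest transcript, Etv4 came first in controls, followed by Ets2 and Etv5.

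Etv6, a repressor of the TEL subfamily (ENSMUSG00000030199, chromosome 6, 134035700 to 134270158, plus strand), was the fourth gene lower in every mutant. It had 1432, 1407, 1606 and 1198 normalized counts in controls and 1167, 1119, 1028 and 1151 in mutants. The gap between the lowest control, control 4, and the highest mutant was narrow. It differed by −0.33 on the log2 scale (SE 0.10, 95% interval −0.56 to −0.10), which did not pass (limma adjusted p = 0.224). It passed in 1 of 25 other fits, with library weights (adjusted p = 0.0126), and over the rest adjusted p reached 0.823 without depth correction, where the value turned to 0.14 against a median of 0.48 for all genes. Between controls 1 and 2 and mutants 1 and 2 Etv6 differed by −0.31, and between control 4 and mutant 4 by −0.059.

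Elk4, a TCF member (ENSMUSG00000026436, chromosome 1, 132007607 to 132032612, plus strand), had the widest spread among controls relative to its mean (coefficient of variation 44.1%). It had 349, 284, 420 and 728 normalized counts in controls and 224, 218, 276 and 313 in mutants. The groups overlapped, and the highest value came from control 4, in which it rests on 263 estimated counts. The difference, −0.71 on the log2 scale (SE 0.27, limma adjusted p = 0.328), ranged from −0.89 to −0.44 with 1 library left out, none of them past the threshold. It passed with the proximal tubule marker score as a covariate (−0.97, limma adjusted p = 0.0419). The 7 proximal tubule markers, of which 3 were at 0 in some library and 0 of the 4 tested passed the threshold, summed to 532 to 3908 normalized counts across controls and 1272 to 10235 across mutants, and their part in the Elk4 values was not tested. The score was higher in control 4, mutant 3 and mutant 4 (1.98, 1.78 and 3.40 log2 units) than in the other 5 libraries (−2.58 to −0.76), and within each group Elk4 was highest in control 4 and mutant 4.

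The other TCF members and Gabpa had like levels in both groups. Elk1 (ENSMUSG00000009406, X chromosome, 20933395 to 20950608, minus strand) had 887, 983, 868 and 811 normalized counts in controls and 887, 960, 900 and 948 in mutants. Its groups overlapped, with a log2 fold change of 0.060 (SE 0.090, 95% interval −0.14 to 0.26, limma adjusted p = 0.835). Elk1 is X-linked, and any effect of sex on its level cannot be told apart from one of genotype. Elk3 (ENSMUSG00000008398, chromosome 10, 93247414 to 93311135, minus strand), a TCF member known from endothelium, had 2765, 2883, 3001 and 2997 normalized counts in controls and 3299, 2868, 3142 and 2720 in mutants. The mutant values straddle the controls, and the log2 fold change was 0.043 (SE 0.081, 95% interval −0.14 to 0.22, limma adjusted p = 0.872). Gabpa (ENSMUSG00000008976, chromosome 16, 84834925 to 84863779, plus strand) had 2019, 2237, 1904 and 2244 normalized counts in controls and 2138, 1926, 2070 and 2191 in mutants. Its log2 fold change was −0.012 (SE 0.084, 95% interval −0.20 to 0.18, limma adjusted p = 0.972), with the sign changing in 7 of 25 other fits.

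Ets1 and Ets2, the ETS subfamily, also overlapped between groups. Ets1 (ENSMUSG00000032035, chromosome 9, 32636221 to 32757820, plus strand), a factor of endothelium and lymphoid cells, had 3352, 3991, 3680 and 3158 normalized counts in controls and 3924, 3334, 3959 and 3500 in mutants. Its log2 fold change was 0.055 (SE 0.096, 95% interval −0.16 to 0.27, limma adjusted p = 0.860). Ets2 (ENSMUSG00000022895, chromosome 16, 95702075 to 95721051, plus strand), a target of ERK phosphorylation, had 3577, 3782, 3397 and 3443 normalized counts in controls and 3722, 3598, 4090 and 3873 in mutants. Its mutant values were on the high side, with a log2 fold change of 0.11 (SE 0.073, 95% interval −0.056 to 0.27, limma adjusted p = 0.604). For these 2 genes, Elk1, Elk3 and Gabpa the intervals allow differences of at most 0.27 log2 units in either direction. The 10 endothelial markers summed to 16241 to 21939 normalized counts in controls and 24157 to 27712 in mutants. All 10 were positive, where 48.3% of genes tested were negative, and none passed the threshold or was at 0 in any library. Their part in the Ets1 and Elk3 values was not tested. The 9 macrophage markers were all positive as well (sums of 2382 to 3520 against 3826 to 4430). Stroma (80564 to 167938 against 139491 to 152653) and erythroid markers (176754 to 282687 against 206108 to 367085) overlapped, and none of these lists had a gene past the limma threshold. The authors' deposited table lists 5 of the 9 macrophage markers and 1 of the 10 endothelial markers, all with positive log2 fold changes. It lists no stroma or erythroid marker.

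**Figure D4:**
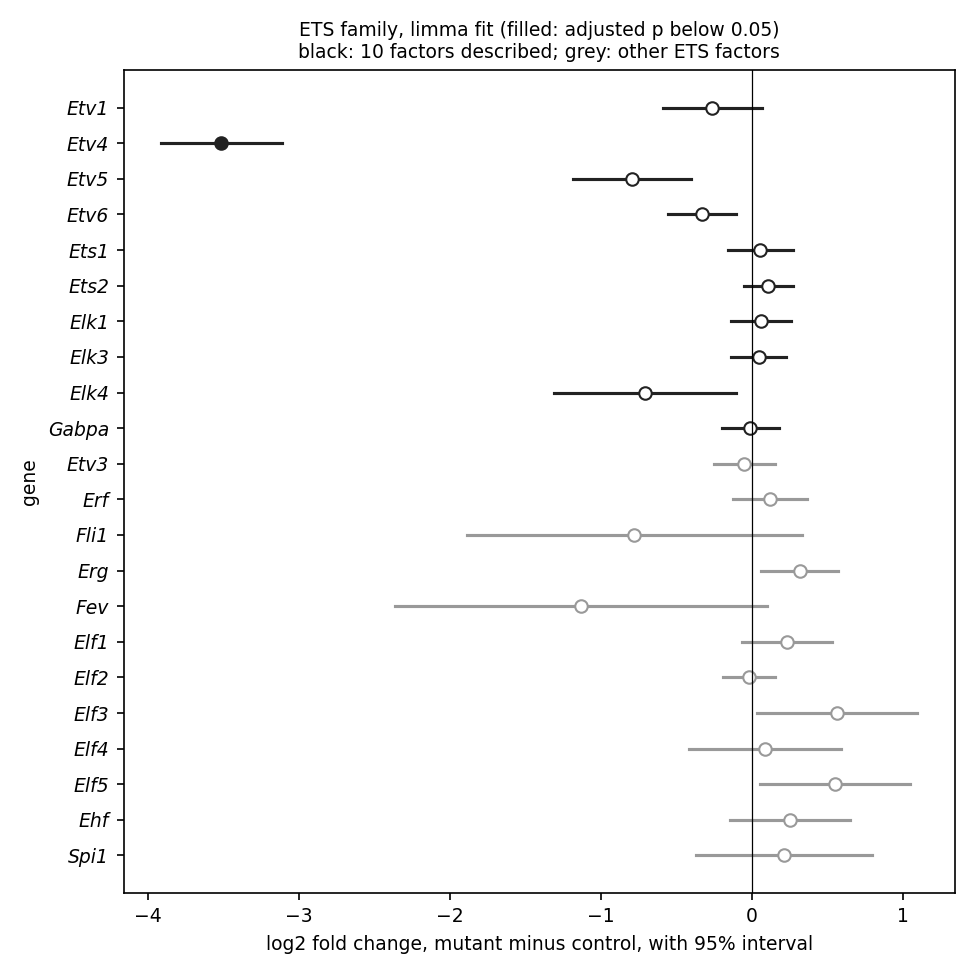
Log2 fold change, mutant minus control, with its 95% interval for the 10 ETS factors (black) and the 12 other ETS factors tested (grey); filled points passed the limma threshold. Etv4, at −3.51, is the single filled point.

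The rest of the ETS family showed no call. Of 17 other ETS genes, 12 passed the filter on low counts, and 0 passed the limma threshold in either direction (0.301% of genes tested did). An unadjusted p below 0.05 was found for 3 of the 12, against 12.0% of genes tested. The median log2 fold change of the 12 was 0.17, with 8 positive and 4 negative, where 48.3% of genes tested were negative. The groups separated for none of the 12, against 8.60% of genes tested. The smallest p belonged to Erg, an endothelial factor, with 740, 782, 881 and 720 normalized counts in controls and 866, 967, 1150 and 913 in mutants (log2 fold change 0.32, SE 0.11, limma adjusted p = 0.303). Elf5, an epithelial ETS factor, followed (0.55, SE 0.22, limma adjusted p = 0.356). In the authors' deposited table, Elf5 (0.73) and Elf3 (0.76) are the 2 of these 17 genes listed, both with positive log2 fold changes. Of the 10 members 2 sit near a relative: Ets1 lies 93.4 kb from Fli1 on chromosome 9, and Ets2 lies 115 kb from Erg on chromosome 16, each pair on opposite strands. Within both pairs neither gene passed the threshold. Fli1 ranged from 462 to 1286 normalized counts in controls and from 156 to 770 in mutants, a wider spread than its neighbour Ets1 had.

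Genes whose products regulate or partner ETS factors gave no call either, with 0 of 14 tested past the limma threshold (0.301% of genes tested passed). An unadjusted p below 0.05 was found for 1 of the 14, against 12.0% of genes tested. Cic, a repressor of the PEA3 genes that ERK signalling relieves, averaged 6319 ± 1678 normalized counts among controls and 6791 ± 499 among mutants (SD, n = 4 each), a difference within the spread. The 2 smallest p values belonged to Crebbp, a histone acetyltransferase (log2 fold change −1.70, SE 0.44, limma adjusted p = 0.151), and Cbfb, the partner of Runx factors (−0.20, SE 0.10, limma adjusted p = 0.489). Crebbp had 3436, 735, 2745 and 1663 normalized counts in controls and 643, 711, 662 and 339 in mutants. Controls 1, 3 and 4 lay well above the mutants, while control 2 lay close to them. The authors' deposited table lists Crebbp with a log2 fold change of −1.97.

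Upstream of the PEA3 genes, 2 of 24 ligands, receptors and ERK cascade genes fell and 0 rose by limma (0.220% and 0.0801% of genes tested did), with a median log2 fold change of −0.063. Fgf20 had 185, 147, 181 and 161 normalized counts in controls and 60.4, 35.1, 18.3 and 15.8 in mutants (log2 fold change −2.53, SE 0.40, limma adjusted p = 0.0386). Gfra1, the GDNF co-receptor, had 6260, 6383, 6162 and 4110 in controls and 3034, 2815, 2246 and 1701 in mutants (−1.24, SE 0.20, limma adjusted p = 0.0432). The groups did not overlap for either gene. With 1 library left out, Fgf20 passed only without control 4 or mutant 1 (limma adjusted p = 0.0197 to 0.168 over the 8 fits) and Gfra1 only without control 4 (0.0124 to 0.180). The authors' deposited table lists 3 of the 24, with log2 fold changes of −2.39 for Fgf20, −1.35 for Gfra1 and −1.05 for Gdnf.

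Genes that ERK signalling and ETS factors are known to induce gave 1 limma call. All 9 ERK feedback genes had negative log2 fold changes (median −0.36), against 48.3% of genes tested. In 3 of the 9 every mutant lay below every control, against 4.43% of genes tested. The authors' deposited table lists 3 of the 9, Spry4, Dusp5 and Dusp6, all with negative log2 fold changes. The receptor kinase inhibitor Spry4, 1 of the 9 (0.220% of genes tested were called lower), fell (−1.12, SE 0.16, limma adjusted p = 0.0219). Spry4 no longer passed without control 1, control 3, mutant 1, mutant 2 or mutant 3, with limma adjusted p values of 0.0260 to 0.126 over the 8 fits that leave out 1 library. Of 4 ureteric tip genes known to need Etv4 and Etv5, none passed; the smallest p values belonged to Met, the HGF receptor (−0.42, SE 0.090, limma adjusted p = 0.101), and Cxcr4 (−1.13, SE 0.29, limma adjusted p = 0.143). In both the mutants lay below every control. Of 7 immediate early genes that TCF members and serum response factor activate, none passed. Ier2 was lower in every mutant (2048, 1989, 1907 and 2200 normalized counts in controls against 1614, 1499, 1508 and 1458, log2 fold change −0.42, SE 0.077, limma adjusted p = 0.0688). Egr1 varied more within groups than between them, from 861 to 4154 in controls and from 532 to 2086 in mutants (−0.85, SE 0.52, limma adjusted p = 0.555).

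Promoter sequence was searched because several members were lower together in mutants. RefSeq windows on GRCm38.p6 matched 8 of the 10 members with 12 windows, and the 250 bases before each start site were searched on both strands; Etv4 and Ets1 were not matched. The high-affinity ETS site CCGGAAGT was found in 1 of the 12 windows, upstream of Elk4, against 2.88% of all 32851 windows of that length. The stretch around it, chr1:132007532-132007579 on the plus strand, ends 40 bases before an Elk4 start site, with the site in capitals.
Elk4: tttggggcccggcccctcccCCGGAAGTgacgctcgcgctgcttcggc
The CIC octamers TGAATGAA and TGAATGGA were found in none of the 12 windows, against 1.08% and 1.01% of all windows. The cAMP response element TGACGTCA was also found in none, against 1.55%. The core that the CIC octamers share, TGAATG, was searched after the sequences had been seen. It was found in 1 of the 12 windows, 3 times upstream of the inner start site of Etv5. Of all windows, 10.9% held at least 1 match and 0.131% held 3 or more. The cut of 3 was taken from this Etv5 window, so the 0.131% does not test how unusual it is. The stretch, chr16:22438472-22438618 on the minus strand, lies inside the gene, overlaps no annotated exon and ends 103 bases before that start site. Capitals mark the 3 matches, the last of them on the opposite strand.
Etv5: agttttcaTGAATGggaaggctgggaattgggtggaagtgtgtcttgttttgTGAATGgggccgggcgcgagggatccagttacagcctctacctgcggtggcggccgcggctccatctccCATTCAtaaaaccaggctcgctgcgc
These matches describe letters and do not show binding.

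**Figure D5:**
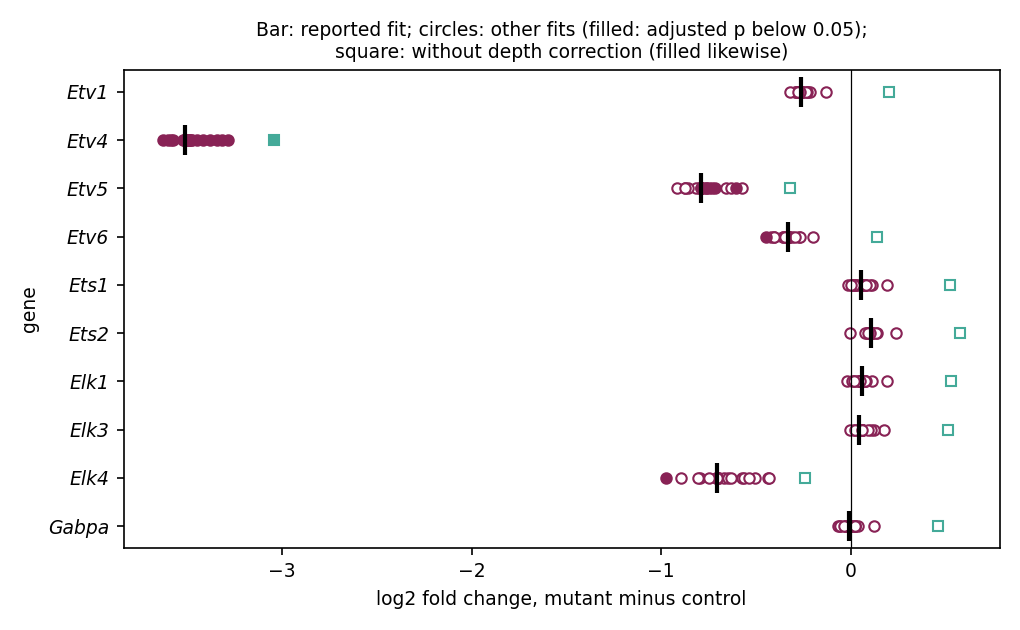
Log2 fold change of each factor in the reported fit (bar) and in the other fits (circles; the square is without depth correction); filled symbols passed the limma threshold. Etv4 passed throughout, Etv5 in 5 fits, and Etv6 and Elk4 in 1 each.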

How the data were processed

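Kidney pairs were profiled by polyA RNA-seq in 8 libraries, with groups and replicate numbers from the titles. According to the submitters' processing notes, fastp 0.23.2, kallisto 0.46.0 and DESeq2 1.40.2 were used with build mm10; how they were run is not stated there. The deposited log2 values are, from the values themselves, log2(estimated count + 1) without depth correction: 67.8% of values above 0 gave whole counts within 1e-06. The authors' deposited table of 644 genes gives, per the file headers, p-values, log2 fold changes and their standard errors, a test score, and mean signal over libraries (baseMean).

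Counts were recovered as 2 to the power of the value, minus 1, and scaled by size factors from medians of ratios (0.361 in control 4, 1.07 to 1.27 elsewhere). Genes reaching 10 normalized counts in 4 or more libraries were tested with limma 3.58.1 under R 4.3.3 (eBayes with trend, two-sided) on log2(normalized count + 1), Benjamini-Hochberg adjusted over 14974 genes at a threshold of 0.05. Fold changes on this scale understate changes of low genes. No count model was run on the recovered values, which are not all whole. On simulated data for 4 mutant against 4 control libraries (14994 genes), the fit recovered 68% of changes of 1 log2 unit and 85% of changes of 2. Of its calls 4.97% were false. The simulation drew each gene independently, without differences shared by many genes of a library. These rates may therefore not hold for the real libraries.

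The members and gene lists were chosen with earlier results of these data known. The 10 members are always named; of each other gene list, the members past the threshold or else the 2 with the smallest p; marker lists are given as counts and sums; and the 4 genes nearest to Etv4 and to Etv5. Cic, Fli1, Elf3, Ret, Six2, Wnt11, Lars2, Capn6, Osr1 and Gdnf were added after their values were seen. So were the other nephron progenitor and ureteric markers named for the order of the mutants. Alternatives covered filters, pseudocount, scaling, trend, voom, weights, blocks, libraries left out, a tubule covariate and gene length. Chromosomes were found for 88.8% of gene rows. Python 3.11.15 and matplotlib 3.10.9 drew the figures.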

Additional observations from a re-analysis of the deposited data

Results flagged for a closer look

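Among the 20 groups of 4 libraries checked, 10 genes in 2 genotypes, 2 values lay apart from the other 3 of their group. Etv1 had 215.6 normalized counts in control 1, and Etv4 had 2311 in control 4, the shallowest library. For each, the gap to the nearest value was a larger share of the group's range (0.843 for Etv1 and 0.974 for Etv4) than Dixon's 95% critical value; chance gives that in about 1 in 20 such groups. Both lie in controls, on the control side of every mutant value.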

How the results depend on the processing

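Etv4 was called in all 25 alternatives, and 0 members were called higher in any. Members called lower numbered 3 with library weights (Etv4, Etv5 and Etv6), 3 with the tubule covariate (Etv4, Etv5 and Elk4), and 2 (Etv4 and Etv5) with the library number block, without control 4 and mutant 4 or with the replicate block, and 1 with any 1 library left out. Genes called lower and higher, 33 and 12 as reported, were 8 and 3 with total count scaling, 18 and 62 without depth correction, 21 and 7 without trend, 415 and 333 with library weights, 150 and 118 with the library number block, 14 and 3 in controls 1 and 2 and mutants 1 and 2, 122 and 57 without control 4 and mutant 4, 153 and 115 with the tubule covariate, and 102 and 32 with voom without control 4, an alternative chosen after seeing the data. Genes called higher were 20 with voom. In the library number block, control 3 and mutant 3 were treated as sharing a number, which their names do not. With X and Y left out, 23 genes were called lower and 5 higher, and 28 of the 45 reported calls remained. With 1 library left out, genes called ranged from 2 to 108 lower and 0 to 53 higher, lowest without control 3 and highest without control 4. With the replicate block they were 88 and 45, and Etv5 had a limma adjusted p of 0.0292; same-numbered libraries correlated at 0.27, 0.098, −0.13 and 0.35 in their deviations from group means, so the numbers were not taken as pairs. The causes were not tested.

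Median log2 fold change over all genes was 0.14 with total count scaling and 0.48 without depth correction. Gabpa turned to 0.12 and 0.46 in these, to 0.038 with library weights, 0.020 with voom without control 4, and 0.018, 0.023 and 0.024 without control 2, control 4 or mutant 2; with 1 library left out it ranged from −0.059 to 0.024. Without depth correction Etv1 was 0.20 and Etv6 0.14. In controls 1 and 2 and mutants 1 and 2 Ets1 was −0.016, Ets2 −0.0070 and Elk1 −0.018, and with 1 library left out Elk3 ranged from −0.0048 (without mutant 1) to 0.091. By the longest transcript, levels per kb moved by more than 1 SD for 8 of 10 members in controls and 7 of 10 in mutants. Depth limits control 4 most, where Etv1 rests on 67.1 estimated counts.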
